A study of Mus musculus with 14 samples.

Results

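The genes described here carry the signals of insulin, the insulin-like growth factors and leptin into the cell. They are the receptors Insr, Igf1r and Lepr, the adaptors Irs1 and Irs2, the kinases Akt1, Akt2 and Mtor, and the brake Tsc1, 9 of the 21441 protein-coding genes whose start could be placed. They were taken by name and not by a threshold on a measured value, although earlier results of these data were known. H3K4me3 was mapped by CUT&Tag, in which an antibody guides a transposase to the chromatin that carries the mark, so that sequenced fragments pile up there. The cells were LSK cells (Lin−Sca1+cKit+), the stem and progenitor fraction of mouse BM, sorted from C57BL/6J mice on a high-fat diet (HFD-LSK, 3 libraries) or on the low-fat control diet (LFD-LSK, 4 libraries). According to the methods of the study the mice were males that started the diets soon after weaning. The labels do not say whether each library came from its own animal, so p-values measure only the spread between these libraries, which may be technical. The study added another cohort of mice for this comparison, and its differential analysis accounted for batch and paired samples. The labels name no cohort, so the tests here could not adjust for it. The 7 IgG libraries were not analysed here.

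Insulin and the insulin-like growth factors bind receptor tyrosine kinases, which phosphorylate the Irs adaptors and through them recruit PI3K. The lipid made by PI3K brings Akt to the membrane, and active Akt releases mTORC1 from the Tsc1 and Tsc2 complex, which otherwise holds it back. Leptin acts through Lepr and the Jak2 and Stat3 relay. In blood stem cells, mTOR activity is tied to growth and cycling, and loss of Tsc1 is known to drive these cells out of quiescence. H3K4me3 marks the starts of genes that are active or poised, and its presence is no measure of transcript level.

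The HFD-LSK lists held 9186, 13094 and 11977 peaks and the LFD-LSK lists 7447, 10572, 10352 and 6921. The lists give no read totals, so depth was recovered from each peak's fold enrichment and p-value, and 100% of the peaks of each list could be solved. Recovered mean coverage was 0.201, 0.268 and 0.116 fragments per position in HFD-LSK and 0.214, 0.172, 0.133 and 0.0891 in LFD-LSK. The lowest summit that entered a list, in multiples of the mean coverage of its library, was 79.7, 29.8 and 34.5 in HFD-LSK and 98.3, 58.1, 60.0 and 101 in LFD-LSK. A weak peak could therefore be listed more easily in HFD-LSK replicates 2 and 3 than in any LFD-LSK library, and the absence of a call does not measure the absence of the mark. The local background at the start peaks had a median of 9.46 times the mean coverage in HFD-LSK replicate 3, compared with 1.41 and 1.26 times in HFD-LSK replicates 1 and 2 and 1.00 to 1.06 times in LFD-LSK. Fragments are not independent molecules, because duplicates were kept in these libraries.

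The sorted cells were checked against markers of the gate. Of 10 LSK and progenitor markers, 5 had a start peak in all 7 lists (Kit, Cd34, Gata2, Meis1 and Mecom), 4 in some lists, and Ly6a, which encodes Sca1, in none. None of 4 B cell, 5 T cell and 6 mature myeloid markers had a start peak in any list. Of the erythroid markers, Klf1 was called in 5 lists. Of 8 markers of BM stroma and fat, Foxc1 was called in 3 lists and Cxcl12 and Pdgfrb in 2 each, and Adipoq and Plin1 in none.

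A gene was counted as called in a list when a peak overlapped the 1 kb on either side of its start. Each gene had a single start, the outer end of its annotated span, so a peak at another start was no call. With any RefSeq start allowed, 4778 genes were called in all 7 lists, compared with 4332. The members called in all lists were 5 in both cases. Of the 9 genes, 5 were called in all 7 lists (Insr, Irs2, Akt2, Mtor and Tsc1), compared with 20.2% of all protein-coding genes. Igf1r and Akt1 were called in 6 lists each and Irs1 in 3. Lepr was called in none, as were 48.7% of protein-coding genes. The genes were chosen for their place in the pathway, and their calls describe them without a test against other genes. Between the diets, no member reached p = 0.05 in the calls (two-sided Fisher's exact test), while 0.3% of the 10997 genes called in any list did, by a start peak in each library of one diet and in none of the other.

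**Figure D1:**
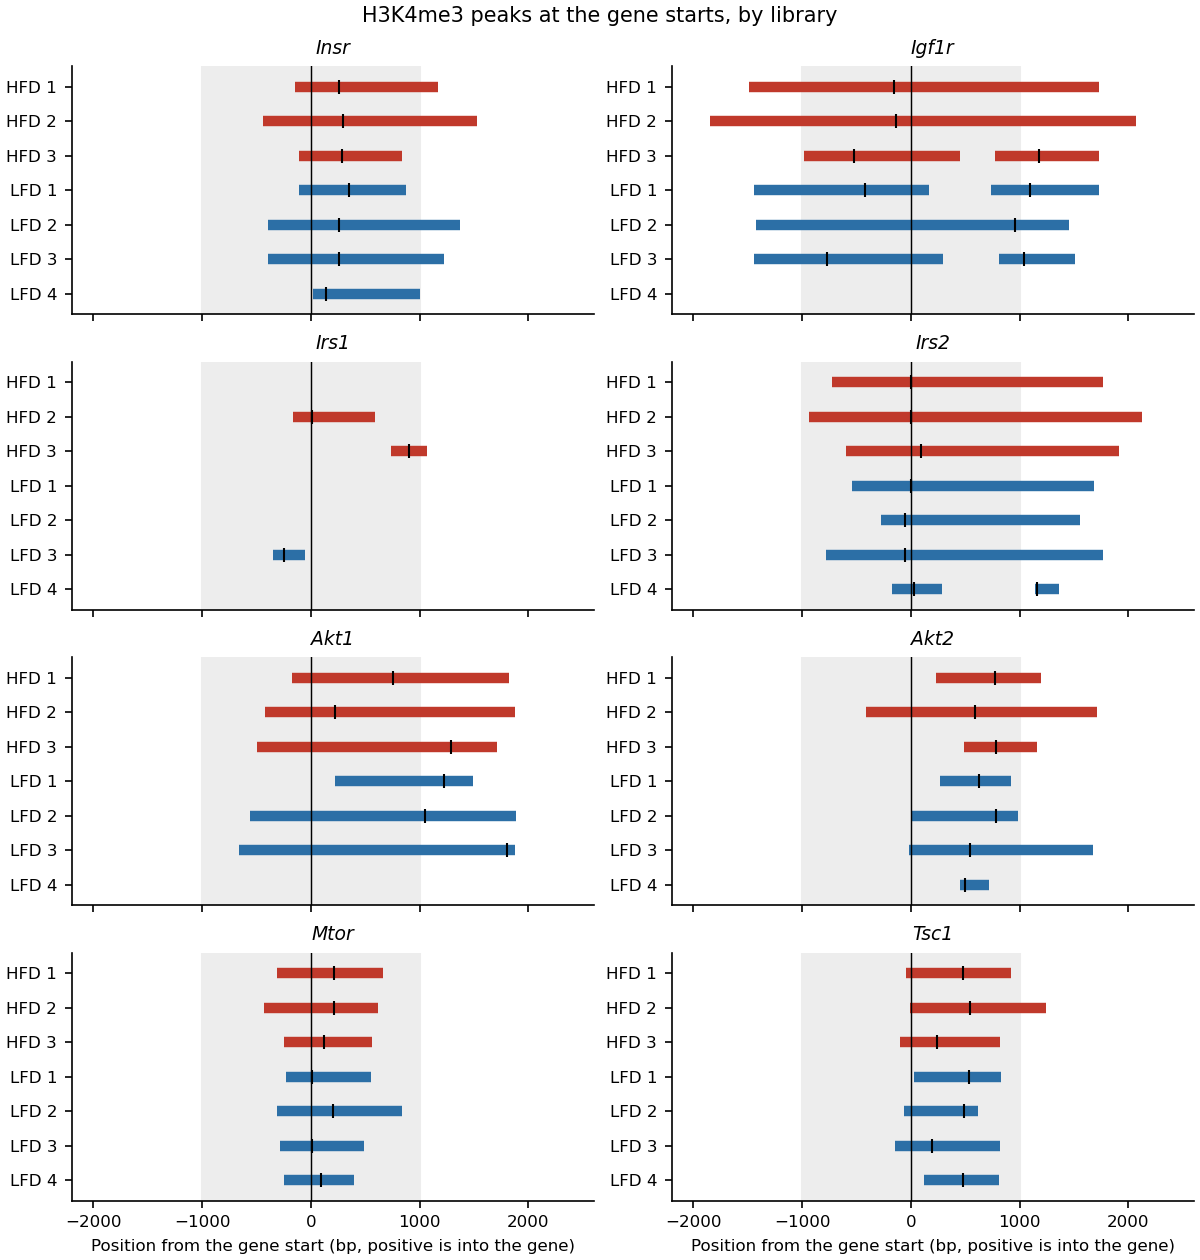
Peaks that overlap or lie close to the start of 8 genes, with 1 row per library (HFD-LSK in red, LFD-LSK in blue). The horizontal axis is the distance from the gene start in bp, positive into the gene, the tick in each bar is the summit and the grey band is the 1 kb on either side of the start. At Irs1 the peak of HFD-LSK replicate 3 lies apart from the others, which share a short stretch upstream of the start, and Igf1r and Akt1 have no bar in LFD-LSK replicate 4.

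Start peaks were compared by rank, where 1 is the peak with the highest fold enrichment of its list, and by width. Among the 4332 genes called in all 7 lists, the ranks of the diets did not overlap for 1.27% of genes with HFD-LSK nearer the top and for 4.39% with HFD-LSK farther from it. None of the 5 members called in all lists was among either group. The first 2 shares depend on the length of the lists, since 55 genes ranked nearer the top and 190 farther from it by rank, compared with 143 and 70 when the rank was taken as a percent of the list. Widths did not overlap for 6.69% of genes that were wider in HFD-LSK and for 0% that were narrower, and again no member was among them. Divided by the median start-peak width of its list, the width was larger in each HFD-LSK library for 105 genes and smaller for 118. No gene passed after Benjamini-Hochberg adjustment in ranks or widths (exact permutation test, smallest adjusted p = 0.746 and 0.713), and 166 and 160 genes had an unadjusted p under 0.05. With 3 libraries against 4 the smallest p is 0.0286, and of the 245 genes whose ranks did not overlap only 166 reached it, so a p above the threshold does not show that the diets were alike.

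Insr encodes the insulin receptor and lies on the minus strand of chromosome 8 (chr8:3150922-3279649, GRCm38). Its start peak ranked 5668, 699.5 and 5332 in HFD-LSK and 536.5, 633, 576.5 and 1111.5 in LFD-LSK. Replicate 2 of HFD-LSK ranked with the LFD-LSK libraries and the other 2 far below them. The HFD-LSK libraries had a mean rank of 3900 ± 2777 (SD, n = 3) against 714 ± 268 (SD, n = 4) for LFD-LSK, 3185 apart (two-sided exact permutation test, p = 0.0571, adjusted p = 0.792). Taken as a percent of the list, the Insr rank differed by 28.5 (two-sided exact permutation test, p = 0.143, adjusted p = 0.955). The ranks of the diets did not overlap without HFD-LSK replicate 2, with a difference of 4786, or without LFD-LSK replicate 4, with a difference of 3318. In the same direction the ranks of 439 of 4332 genes did not overlap without the first and those of 349 of 5838 without the second. Fold enrichment is the summit over its local background, and at Insr that background was 25.0 and 28.4 times the mean coverage in HFD-LSK replicates 1 and 3. It was 1.00 times in HFD-LSK replicate 2 and between 1.06 and 3.16 times in LFD-LSK. The summit itself stood at 344, 291 and 285 times the mean coverage in HFD-LSK and at 375, 354, 247 and 314 times in LFD-LSK, and these heights overlapped. On the log2 scale, centred on the shared start peaks of each list, the summit height differed by 0.02 (95% confidence interval −0.34 to 0.39, limma, adjusted p = 0.991). The part of the local background in the rank difference was not tested beyond these values. The peak was 1312, 1971 and 951 bp wide in HFD-LSK and 986, 1760, 1626 and 981 bp in LFD-LSK, with overlap between the diets.

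**Figure D2:**
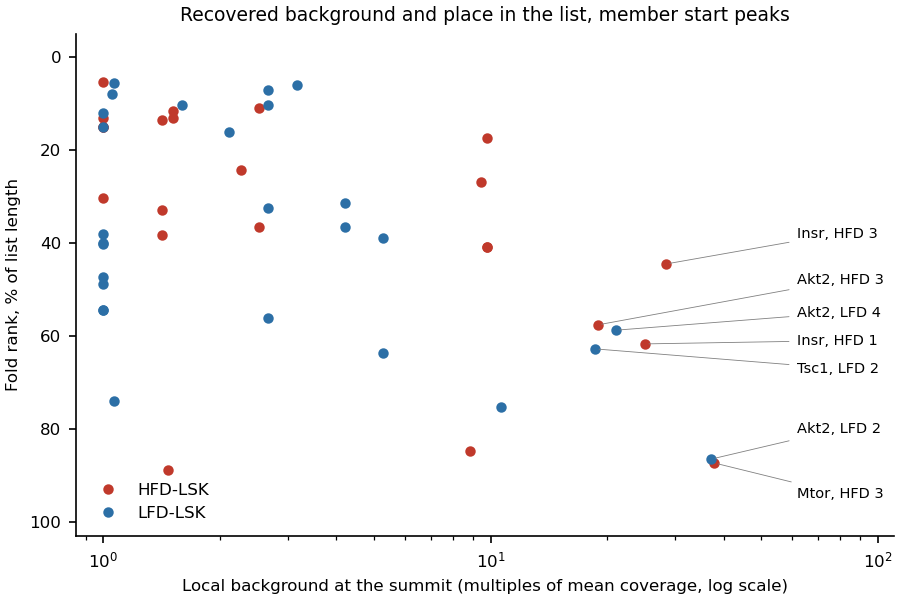
Place of each of the 50 start peaks in its list, as fold rank in percent of the list length (0 at the top is the highest fold), against the recovered local background at its summit in multiples of the mean coverage of the library, on a log axis. Each point is 1 gene in 1 library, HFD-LSK in red and LFD-LSK in blue, and the 7 points with the highest background are named. Those 7 lie below 40% of the list.

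Igf1r, the receptor for the insulin-like growth factors, spans 281 kb of the plus strand of chromosome 7 (chr7:67952257-68233668). Its start peak was found by 3 of 3 HFD-LSK lists and by 3 of 4 from LFD-LSK (two-sided Fisher's exact test, p = 1). Rank was 1385, 1724 and 2076 in HFD-LSK and 902, 4115 and 5629.5 in LFD-LSK replicates 1, 2 and 3. The HFD-LSK ranks lay within the range of LFD-LSK. A single peak of 3225, 3921 and 2877 bp covered the start in replicates 1 and 2 of HFD-LSK and replicate 2 of LFD-LSK. The other 3 libraries showed a pair of peaks on either side of a gap just downstream of the start. LFD-LSK replicate 4, with the lowest mean coverage, had no peak at the start.

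Igf1r also carried a peak deep in the gene. Each of the 3 HFD-LSK lists held it, as did 2 of 4 from LFD-LSK (replicates 3 and 4), and together the calls ran from 68128965 to 68130831 on chromosome 7, 177 kb downstream of the start. Widths were 1155, 1745 and 1574 bp in HFD-LSK and 649 and 211 bp in LFD-LSK. Rank was 5268.5, 5632 and 864.5 in HFD-LSK and 9639 and 6168.5 in LFD-LSK. The calls of the LFD-LSK libraries did not overlap each other, and each of them overlapped all 3 calls of HFD-LSK. In HFD-LSK replicate 3 it ranked ahead of the peaks at the start of the gene by fold, over a local background of 1.00 times the mean coverage compared with 9.46 and 9.80 times at the start. By height the order turned, since its summit stood at 138 times the mean coverage and those at the start at 181 and 207 times. In LFD-LSK replicate 4 it was called although the start was not. The nearest start of another annotated gene, the lncRNA Gm51487, lay 26395 bp away. No test was planned for peaks inside genes, and the diets are described by these values alone.

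Lepr, the leptin receptor, had neither a start peak nor a peak inside the gene in any of the 7 lists (chr4:101717137-101815352, plus strand). The genes that relay its signal were called throughout, with start peaks at Jak2 and Stat3 in all 7 lists. Insr had a further peak inside the gene, 57.8 kb from the start, called in replicate 2 of HFD-LSK and replicates 2 and 4 of LFD-LSK.

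The adaptors Irs1 and Irs2, which dock PI3K to the active receptors, differed from each other. Irs2 (chr8:10984681-11008929, minus strand) was called in all 7 lists and had a wide start peak, of 2491, 3064 and 2515 bp in HFD-LSK and 2228, 1826, 2549 and 465 bp in LFD-LSK. Its median width of 2491 bp was larger than that of 98.5% of the genes called in all lists. Only LFD-LSK replicate 3 reached the HFD-LSK widths, and in LFD-LSK replicate 4 the region was broken into the start peak and a piece of 222 bp. The HFD-LSK libraries had a mean width of 2690 ± 324 bp (SD, n = 3) against 1767 ± 917 bp (SD, n = 4) for LFD-LSK, 923 bp apart, which the test did not separate (two-sided exact permutation test, p = 0.2, adjusted p = 0.725). Without LFD-LSK replicate 4 the difference was 489 bp. Divided by the median start-peak width of each list, the difference was 0.546 (two-sided exact permutation test, p = 0.486). The divided widths were 2.70, 2.27 and 2.88 in HFD-LSK and 2.86, 1.75, 2.86 and 0.823 in LFD-LSK. Irs2 ranked 3026.5, 4780 and 3215 in HFD-LSK and 2986, 6719.5, 4157.5 and 2171 in LFD-LSK, with overlap. The start of the lncRNA 9530052E02Rik, on the other strand, lies 1079 bp downstream of the Irs2 start, so outside LFD-LSK replicate 4 the wide peak covers both starts and cannot be divided between them.

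Irs1 (chr1:82233105-82291439, minus strand) was called in 3 libraries, replicates 2 and 3 of HFD-LSK and replicate 3 of LFD-LSK (two-sided Fisher's exact test, p = 0.486). The peaks were 752, 335 and 303 bp wide and ranked 11097, 10648 and 7665.5, in the lower part of each list. In HFD-LSK replicate 2 the call reached from −164 to 587 bp relative to the start. That of HFD-LSK replicate 3 lay 737 to 1071 bp downstream, and that of LFD-LSK replicate 3 lay wholly upstream of the start. Their summits rested on 29, 5 and 14 fragments. The summit of HFD-LSK replicate 3 stood at 43.2 times the mean coverage, below the lowest summit listed in any LFD-LSK library.

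Akt1 and Akt2 encode the serine and threonine kinases that PI3K activates. Akt1 (chr12:112653821-112674884, minus strand) was found by 3 of 3 HFD-LSK lists and by 3 of 4 from LFD-LSK (two-sided Fisher's exact test, p = 1), and LFD-LSK replicate 4 was again the one without a call. It ranked 3516, 3184 and 4896 in HFD-LSK and 4185, 3870.5 and 7788.5 in LFD-LSK replicates 1, 2 and 3. Widths were 1992, 2300 and 2210 bp in HFD-LSK and 1268, 2444 and 2537 bp in LFD-LSK. The diets overlapped in both. The start of the lncRNA Gm30150 lies 408 bp downstream on the other strand, inside the same peak, and a second RefSeq start of Akt1 lies 608 bp downstream.

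Akt2 (chr7:27591552-27640826, plus strand) was called in all 7 lists. Rank was 1195.5, 1521.5 and 6900.5 in HFD-LSK and 761, 9140.5, 1565.5 and 4066.5 in LFD-LSK. In each diet the lowest places in the list came with the highest local background, 18.9 times the mean coverage in HFD-LSK replicate 3 and 37.2 and 21.1 times in LFD-LSK replicates 2 and 4. In the other 4 libraries it was between 1.00 and 2.65 times. The HFD-LSK libraries had a mean rank of 3206 ± 3204 (SD, n = 3) against 3883 ± 3777 (SD, n = 4) for LFD-LSK (two-sided exact permutation test, p = 0.771, adjusted p = 0.951). The direction of this difference, −678, turned without HFD-LSK replicate 1 (328), HFD-LSK replicate 2 (165) or LFD-LSK replicate 2 (1075), and it was −2525 without HFD-LSK replicate 3. Leaving out replicate 1 or 3 of LFD-LSK gave −1718 or −1450. Widths ran from 672 to 2125 bp in HFD-LSK and from 268 to 1687 bp in LFD-LSK. The summit lay 494 to 779 bp downstream of the start in the 7 libraries.

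Mtor, the kinase at the core of both mTOR complexes, had the narrowest range of widths among the 5 genes called in all lists (chr4:148448582-148557685, plus strand). The peak was 970, 1054 and 816 bp wide in HFD-LSK and 779, 1149, 778 and 647 bp in LFD-LSK, a difference in means of 108 bp (two-sided exact permutation test, p = 0.457, adjusted p = 0.755). It was 44.7 bp without LFD-LSK replicate 4, 54.8 bp without HFD-LSK replicate 2, 174 bp without HFD-LSK replicate 3 and 212 bp without LFD-LSK replicate 2. Divided by the median start-peak width of each list, the difference turned to −0.107. Rank was 1240.5, 1444 and 10456.5 in HFD-LSK and 2425.5, 841, 1077.5 and 3375.5 in LFD-LSK. HFD-LSK replicate 3 stood apart from the other 6 libraries. There the local background was 37.8 times the mean coverage, compared with 1.00 to 2.65 times in the other 6, while the summit of 224 times was close to the 225 times of LFD-LSK replicates 3 and 4. The HFD-LSK libraries had a mean rank of 4380 ± 5263 (SD, n = 3) against 1930 ± 1190 (SD, n = 4) for LFD-LSK (two-sided exact permutation test, p = 0.486). Without HFD-LSK replicate 3 the difference turned from 2450 to −588, and without HFD-LSK replicate 1 or 2 it was 4020 or 3919.

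Tsc1, which forms the brake on mTORC1 together with Tsc2, was called in all 7 lists (chr2:28640993-28691172, plus strand). Its peak was 967, 1249 and 918 bp wide in HFD-LSK and 806, 684, 966 and 693 bp in LFD-LSK. Only LFD-LSK replicate 3 reached the HFD-LSK range. The HFD-LSK libraries had a mean width of 1045 ± 179 bp (SD, n = 3) against 787 ± 131 bp (SD, n = 4) for LFD-LSK, 257 bp apart (two-sided exact permutation test, p = 0.0857, adjusted p = 0.713), and 155 bp apart without HFD-LSK replicate 2. Divided by the median start-peak width of each list, the difference was 0.00894 (two-sided exact permutation test, p = 0.943). Over all genes called in every list the median difference was 274 bp, and 92.5% had a larger mean width in HFD-LSK, as did each of the 5 members. Tsc1 ranked 2780.5, 1982 and 4896 in HFD-LSK and 3519, 6636, 5629.5 and 2637 in LFD-LSK (difference −1386, two-sided exact permutation test, p = 0.314, adjusted p = 0.879). The difference was −709 without LFD-LSK replicate 2, −767 without HFD-LSK replicate 2 and −2224 without HFD-LSK replicate 3. In LFD-LSK replicate 2, which ranked lowest, the local background was 18.6 times the mean coverage, and it was 9.80 times in HFD-LSK replicate 3 and 1.00 times in the other 5 libraries. Ranked by the fragments at the summit, a choice made after seeing the data, the difference was −52.6 (two-sided exact permutation test, p = 1). Among the start peaks of the 4332 shared genes alone, Tsc1 ranked nearer the top in the 3 HFD-LSK libraries than in any from LFD-LSK (difference −1016, two-sided exact permutation test, p = 0.0571, adjusted p = 0.968). By this ranking 116 of the 4332 genes did not overlap in the same direction and 104 in the other.

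**Figure D3:**
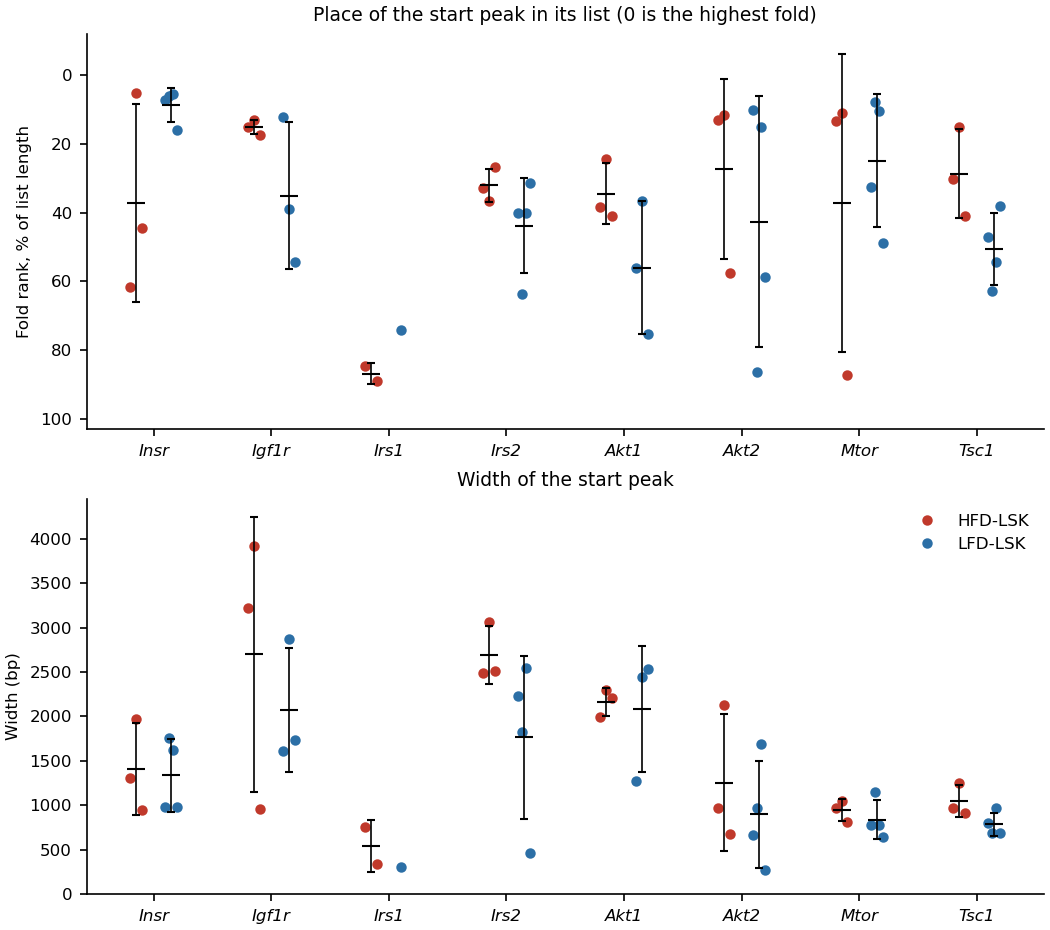
Upper plot, fold rank of the start peak in percent of the list length (0 at the top is the highest fold), and lower plot, its width in bp, for 8 genes. Each point is 1 library, HFD-LSK in red and LFD-LSK in blue, and the bars give the mean and SD of the libraries that called the gene (1 library has no bar). The diets overlap for each of the 5 genes called in all 7 lists.

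By median rank over the 7 lists the order was Insr (699.5), Mtor (1444), Akt2 (1565.5), Irs2 (3215) and Tsc1 (3519), and the ranges of neighbours in this order overlapped. Over the lists that called them, the median rank was 1900 for Igf1r, 4027.75 for Akt1 and 10648 for Irs1. The gene whose ranks were most like those of Mtor over the 7 lists was Tmem41b, with a mean absolute difference of 0.27 in log2 rank. For Insr it was Med22 (0.48), for Irs2 Lmln (0.20), for Akt2 Cops2 (0.34) and for Tsc1 Spred2 (0.26).

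The other genes of the pathway were followed as a list of 53. Of these, 21 were called in all 7 lists, 15 in some and 17 in none, beside 20.2% of all protein-coding genes in all lists and 48.7% in none. None of the 21 had ranks that did not overlap between the diets, and the width of 1 of them, Deptor, did not overlap and was larger in HFD-LSK, as for 6.69% of all genes called in every list. Deptor encodes a protein that binds and restrains mTOR, and its peak was 1492, 1655 and 1455 bp wide in HFD-LSK and 914, 1418, 1376 and 625 bp in LFD-LSK (two-sided exact permutation test, p = 0.143, adjusted p = 0.725). The mean width was larger in HFD-LSK for 19 of the 21, and the median difference was 311 bp, beside 274 bp over all genes.

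The calls are given by the roles of the genes. Of 12 ligands and binding proteins, 10 had no start peak in any list (Ins1, Ins2, Igf1, Igf2, Lep, Igfbp1, Igfbp2, Igfbp3, Igfbp5 and Igfbp6), while Igfbp4 was called in 5 lists and Igfbp7 in 1. Among all protein-coding genes 48.7% had none. The receptors Igf2r and Insrr and the adaptor Irs4 had none. Pik3cd among the PI3K genes, Pdpk1, and Slc2a4, the insulin-responsive glucose transporter, had none either. A single start was used for each of these genes, so a peak at another start was not counted. Of the 8 genes of the mTOR complexes and their switch, each was called in at least 5 lists, with Rictor, Mapkap1, Deptor, Akt1s1 and Tsc2 in all 7, Rptor and Mlst8 in 6 and Rheb in 5. Of all protein-coding genes, 20.2% were called in 7 lists, 12.3% in 6 and 5.68% in 5. Among the PI3K genes, Pik3r1 was called in all lists and Pik3ca, Pik3cb and Pik3r2 in 6.

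Among the brakes, Phlpp1, a phosphatase of Akt, was called in all 7 lists. Ptpn1, a phosphatase of the insulin receptor, was called by 2 of 3 lists for HFD-LSK but 0 of 4 for LFD-LSK, and Inppl1 in 3 of 3 and 1 of 4 (two-sided Fisher's exact test, p = 0.143 each). Socs3, which restrains leptin signaling, went the other way, with 1 of 3 and 4 of 4 (two-sided Fisher's exact test, p = 0.143). The share of all genes with such splits is not given here, and these calls are not read as a difference between the diets. Inpp5d was called in 6 lists. Among the rest, Slc2a1 was called in 6 lists, Foxo4 in 5 and Grb10 in 1.

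Start sequences were taken from RefSeq (GRCm38.p6) for 8 of the 9 genes, and Insr had no entry. In the 300 bases around each start, the ratio of observed to expected CpG had a median of 0.827 for genes called in all 7 lists, 0.732 for genes called in some and 0.252 for genes called in none. It was 1.11 at Igf1r, 1.06 at Irs2, 0.873 at Mtor, 0.827 at Irs1 and 0.640 at Akt2, and 0.812 at a RefSeq start of Tsc1 downstream of the one used for its peaks. Akt2, called in all lists, thus lay below Irs1, with calls in 3. Further RefSeq starts inside Akt2 had ratios of 0, 0.194 and 0.111. At the start of Akt1 the ratio was 0.391, and 0.906 at its second RefSeq start 608 bp downstream. The Lepr starts had ratios of 0.639 and 0.587, above the median of uncalled genes.

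The 250 bases before the start are shown for Mtor and Irs2, called in all lists, beside Igf1r and Irs1, which were not. Capitals mark the GC box (GGGCGG) and the CCAAT box on either strand. The GC box was found in 46.2% of the 300-base windows at the 21263 protein-coding starts and the CCAAT box in 38.2%. The 4 windows lie at chr4:148448332-148448581 (plus strand), chr8:11008930-11009179 (minus strand), chr7:67952007-67952256 (plus strand) and chr1:82291440-82291689 (minus strand), and are written 5′ to 3′ on the strand of the gene.
Mtor: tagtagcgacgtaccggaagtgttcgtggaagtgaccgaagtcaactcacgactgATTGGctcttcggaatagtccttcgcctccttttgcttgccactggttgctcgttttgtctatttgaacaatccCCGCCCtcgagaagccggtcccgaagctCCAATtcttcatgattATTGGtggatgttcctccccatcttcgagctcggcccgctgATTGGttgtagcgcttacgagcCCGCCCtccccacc
Irs2: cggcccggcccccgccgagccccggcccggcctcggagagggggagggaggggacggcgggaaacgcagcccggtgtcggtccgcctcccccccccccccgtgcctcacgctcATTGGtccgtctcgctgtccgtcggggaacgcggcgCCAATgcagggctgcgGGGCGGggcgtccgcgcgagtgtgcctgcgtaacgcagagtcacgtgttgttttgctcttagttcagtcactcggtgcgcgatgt
Igf1r: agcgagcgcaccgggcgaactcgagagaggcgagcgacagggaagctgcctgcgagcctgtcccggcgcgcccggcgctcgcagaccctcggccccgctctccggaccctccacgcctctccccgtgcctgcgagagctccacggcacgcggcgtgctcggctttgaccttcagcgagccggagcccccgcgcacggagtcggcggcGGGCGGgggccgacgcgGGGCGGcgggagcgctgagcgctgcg
Irs1: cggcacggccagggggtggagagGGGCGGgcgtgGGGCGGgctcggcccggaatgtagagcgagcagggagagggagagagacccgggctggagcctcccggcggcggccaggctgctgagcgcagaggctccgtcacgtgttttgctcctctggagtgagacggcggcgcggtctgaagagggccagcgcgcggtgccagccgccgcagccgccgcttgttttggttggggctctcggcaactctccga
Mtor held 4 CCAAT boxes and 2 GC boxes, Irs2 2 and 1, and Igf1r and Irs1 2 GC boxes each and no CCAAT box. The windows at the Akt2 start and the RefSeq start of Tsc1, genes called in all lists, held no CCAAT box, and 1 of the Lepr windows held 1. The CCAAT box was found at 37.1% of the starts of genes called in all lists and 38.8% of those called in none, compared with 69.3% and 25.4% for the GC box. A match describes the letters and is not a measured binding site.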

How the data were processed

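The submitters' processing notes name Trim Galore, Bowtie2, Picard, MACS2, bedtools, HOMER, featureCounts and GRCm38, whereas the methods of the study name GRCm39 and SEACR. The deposited lists are narrowPeak files, 1 for each library, and their positions match gene starts of GRCm38. For each peak the authors deposited a score, a fold enrichment over local background (a ratio), and a −log10 p-value and −log10 q-value. The members and gene lists were chosen with earlier results of these data known. Gene positions came from RefSeq (GRCm38.p6), with strands from RefSeq for 17492 protein-coding genes and, by symbol, from GENCODE for 3949. Calls were tested by Fisher's exact test, and ranks and widths by exact permutation over 35 assignments, with Benjamini-Hochberg adjustment over 4332 genes. Fragments at a summit were recovered by inverting the MACS2 fold and p within a relative error of 5e-05. Named were all members, and pathway genes called in no list or in some lists or not overlapping between diets, and for each member called in all lists the gene closest in mean absolute log2 rank; other pathway genes and markers named were chosen after their values were seen. Alternatives covered thresholds, windows, list lengths, ranking, width measures, the replicate block and leaving out each library. Some genes of the lists are not reported here. Steps were tested on simulated data. Python 3.11.15, scipy 1.17.1 and limma 3.58.1 were used.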

Additional observations from a re-analysis of the deposited data

Results flagged for a closer look

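Among the 4 LFD-LSK libraries, the rank of the Insr start peak in replicate 4 (1111.5) lay far from the other 3 (536.5, 633 and 576.5) for the range of the group. It was the single such case among 10 sets of LFD-LSK ranks and widths. Chance gives about 1 in 20 for each set, so 1 case among 10 sets is not unusual. Replicate 4 also had the shortest list, with 6921 peaks. Groups of 3 libraries were not examined in this way.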

How the results depend on the processing

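With lists trimmed to the same length, 3 of the 9 genes were called in all lists (1941 of all genes, compared with 4332), since Akt2 and Mtor ranked below 6921 in 1 list each; with a −log10 q of at least 5 it was 4 (2530 of all genes), and without 1 library at a time 5 to 7 (4332 to 5838), the highest without LFD-LSK replicate 4. Genes whose ranks did not overlap between the diets numbered 1 (Tsc1) among the shared start peaks and 0 to 1 without 1 library, beside 100 to 276 of all genes with HFD-LSK nearer the top and 318 to 603 farther from it. Those whose widths did not overlap numbered 0 to 2, beside 291 to 944 of all genes wider in HFD-LSK and 0 to 68 narrower. Leaving out 1 library moved the rank difference of Insr from 2301 to 4786, Irs2 from −947 to 569, Akt2 from −2525 to 1075, Mtor from −588 to 4020 and Tsc1 from −2224 to −709, and the width difference of Insr from −207 to 303 bp, Irs2 from 489 to 1184 bp, Akt2 from −77.5 to 649 bp, Mtor from 44.7 to 212 bp and Tsc1 from 155 to 321 bp. Ranked by the fragments at the summit, a choice made after seeing the data, the difference was 696 for Akt2 and −829.5 for Mtor. By log2 summit height (limma), also chosen after seeing the data, the difference was 0.0231 for Insr, −0.11 for Akt2 and 0.20 for Mtor, each opposite to its rank. Width over the list median differed by −0.303 for Insr, −0.107 for Mtor, 0.00894 for Tsc1, 0.0950 for Akt2 and 0.546 for Irs2. Bases covered within 1 kb differed by −9.83 for Insr. The cause of these changes was not tested. Akt2 could not be ranked at a −log10 q of at least 5. Of 193 recomputed values, 168 neither reversed in direction nor crossed the threshold, or for a count stayed within 1.5 times. Among these, some differences in call share fell to 0. They were those of Irs1 with lists trimmed to the same length and of Igf1r and Akt1 without LFD-LSK replicate 4. Without 1 HFD-LSK library the smallest possible permutation p is 0.0667, and without 1 LFD-LSK library it is 0.1. In those settings and with the replicate block, the side of the threshold was therefore fixed in advance. Libraries of the diets with the same replicate number, 1 to 3, had correlations of deviations of 0.0729, 0.0183 and −0.0120 across genes. Those of the other pairs ran from −0.0766 to 0.0886. These values give no sign of pairing by number, but cannot show that pairs or cohorts are absent. With the replicate block the Insr width difference was −46 bp and no call changed, and the smallest p of 8 sign flips is 0.25. Limma on log2 fold called 0 genes after adjustment and 223 at an unadjusted p under 0.05, and on summit height 0 and 180.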
